A study of Mus musculus with 3 samples.

Results

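Tuft cells are rare chemosensory cells of the intestinal epithelium, and 9 of their known genes were followed here through 3 bulk RNA-seq libraries of a sort for lymphatic vessel cells: Dclk1, Trpm5, Pou2f3, Avil, Alox5ap, Ltc4s, Gfi1b, Sh2d6 and Chat. The members are the table rows whose symbol equals one of these names. Of the 24091 genes in each table, 8 are members. Sh2d6 has no row under that symbol and was not analysed here.

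The libraries, called replicates 1, 2 and 3, form a single group. Each came from large intestine of C57BL/6 mice, digested and sorted as lymphatic endothelial cells with markers that included CD31, podoplanin and LYVE1. The labels name no treatment, genotype, age or sex. Nor do they state that each library is a separate animal, and the SDs below could thus reflect technical variation alone. There is no second condition and no tuft cell sort, and the values therefore describe tuft cell transcripts in a bulk preparation aimed at other cells.

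A tuft cell detects luminal metabolites through a cascade shared with taste cells. A G protein activates phospholipase C, calcium leaves internal stores, and the cation channel TRPM5 opens. The cell then releases interleukin-25, cysteinyl leukotrienes and acetylcholine, through which it recruits type 2 immunity and acts on neighbouring epithelium. The POU factor POU2F3 is required for the lineage. DCLK1, a microtubule-associated kinase, and advillin, an actin-binding protein of the villin family encoded by Avil, serve as markers of the cell.

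The prepared cells carried lymphatic genes and, at higher levels, epithelial genes. Levels are given in TPM, an abundance corrected for transcript length and library size, and a gene is said to be at 1 TPM or more throughout where every library has that level. This held for all 11 lymphatic identity genes found in the table, with Lyve1, Mmrn1 and Reln highest, Prox1 at 2.63 to 4.82 and the vessel gene Pecam1 at 103 to 117. Their summed level was 1692, 1771 and 984 TPM in replicates 1, 2 and 3, and that of 14 epithelial identity genes, led by Krt8, Lgals4 and Krt19, was 14663, 15525 and 16685. Replicate 1 was low in other respects. The summed level of 9 absorptive colonocyte genes was 6915 TPM there, against 9900 and 10607 in replicates 2 and 3. The median over genes at 1 TPM or more throughout was 14.8, against 18.0 and 17.8. Replicate 3 differed from the others in further lists. It was lowest in 10 of the 11 lymphatic genes and highest in all 10 fibroblast genes (summed level 539 TPM against 216 and 148), in 14 of 15 macrophage and dendritic cell genes (688 against 355 and 263) and in 9 of 10 genes of smooth muscle and pericytes (424 against 242 and 197). TPM keeps no depth. Regular steps in the low values put the worth of 1 TPM over 1000 effective bases at 32.55 fragments in replicate 1, 28.65 in replicate 2 and 26.35 in replicate 3. Fragment numbers below are estimates made with these factors and the longest annotated transcript of a gene.

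Promoter sequences are shown for Avil, Trpm5, Gfi1b and Dclk1, because these 4 members varied alike between the libraries, as described further on. They come from RefSeq (GRCm38.p6, the assembly behind mm10), from 250 bases before to 50 after an annotated start, 5′ to 3′ on the gene's strand. Capitals mark the letters ATGCAAA or their reverse complement TTTGCAT, the first 7 letters of the octamer ATGCAAAT that POU factors are known to bind.
Avil, chr10:127000459-127000758, plus strand: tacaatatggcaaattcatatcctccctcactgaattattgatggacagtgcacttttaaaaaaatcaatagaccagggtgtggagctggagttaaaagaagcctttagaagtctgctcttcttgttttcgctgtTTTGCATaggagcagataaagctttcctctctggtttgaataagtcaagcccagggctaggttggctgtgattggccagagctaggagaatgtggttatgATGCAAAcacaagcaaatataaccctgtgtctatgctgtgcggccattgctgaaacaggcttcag
Trpm5, chr7:143094593-143094892, minus strand: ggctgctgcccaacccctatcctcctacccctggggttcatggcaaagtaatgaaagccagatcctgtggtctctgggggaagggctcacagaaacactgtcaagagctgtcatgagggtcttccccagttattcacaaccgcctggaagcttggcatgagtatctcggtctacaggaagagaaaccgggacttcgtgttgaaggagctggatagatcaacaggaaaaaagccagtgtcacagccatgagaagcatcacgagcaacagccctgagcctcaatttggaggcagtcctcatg
Gfi1b, chr2:28621933-28622232, minus strand: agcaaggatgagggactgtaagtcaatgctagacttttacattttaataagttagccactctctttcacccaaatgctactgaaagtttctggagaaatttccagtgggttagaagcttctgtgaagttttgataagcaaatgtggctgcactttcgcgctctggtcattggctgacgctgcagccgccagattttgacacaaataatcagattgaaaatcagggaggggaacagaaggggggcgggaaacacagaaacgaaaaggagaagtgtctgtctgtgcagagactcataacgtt
Dclk1, upstream start, chr3:55242114-55242413, plus strand: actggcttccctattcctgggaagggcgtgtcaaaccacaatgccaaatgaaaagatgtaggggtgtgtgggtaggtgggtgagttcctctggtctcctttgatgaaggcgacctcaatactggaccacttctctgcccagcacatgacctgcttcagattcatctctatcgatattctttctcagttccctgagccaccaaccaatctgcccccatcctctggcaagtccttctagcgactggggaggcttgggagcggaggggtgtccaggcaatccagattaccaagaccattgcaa
Dclk1, downstream start, chr3:55461478-55461777, plus strand: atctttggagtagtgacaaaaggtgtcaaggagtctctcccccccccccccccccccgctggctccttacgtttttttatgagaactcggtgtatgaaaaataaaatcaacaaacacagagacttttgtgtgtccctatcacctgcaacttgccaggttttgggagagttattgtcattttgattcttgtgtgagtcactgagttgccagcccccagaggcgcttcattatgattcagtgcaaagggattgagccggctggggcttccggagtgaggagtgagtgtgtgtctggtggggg

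The 7 letters stand in the Avil window at 2 places, on opposite strands, and in no other of the 8 windows listed for 7 members (these 5 and those of Chat, Ltc4s and Sh2d6). Of all 32851 windows in the RefSeq table, 4.63% hold them on either strand. The full octamer ATGCAAAT, which contains the 7 letters, is in none of the 8 windows and in 1.74% of all windows. The GC content of the 5 windows shown was 43.0% for Avil, 53.0% for Trpm5, 44.3% for Gfi1b and 52.7% and 50.3% for Dclk1, against a median of 52.7% over all windows. They hold 2 to 7 CG pairs each, where the median window holds 7.

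Tuft cell genes were present at low levels. Of the 8 members, 5 were at 1 TPM or more throughout (Ltc4s, Alox5ap, Avil, Trpm5 and Dclk1), Pou2f3 lay at the threshold, and Chat and Gfi1b stayed below it in every library. Of all genes, 53.4% met this criterion, so the members' share was near the background. The same 53.4% is the background for every such count in the other lists. The summed level of the members was 35.9, 38.3 and 35.5 TPM, and their median gene lay at 2.56, 4.40 and 1.87, against a median over all 24091 genes of 2.02, 2.44 and 2.77. The 2 leukotriene genes Ltc4s and Alox5ap made up most of the sum.

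**Figure D1:**
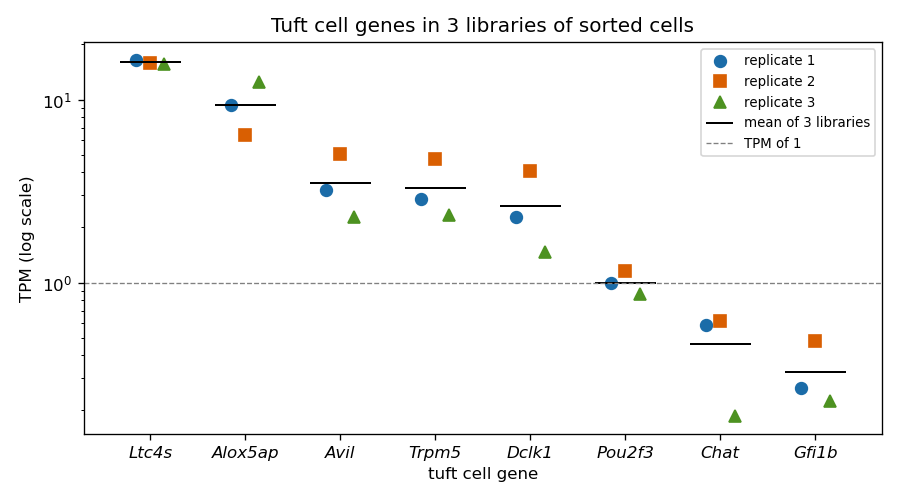
TPM (log axis) of the 8 tuft cell genes in replicates 1, 2 and 3, with the mean of the 3 libraries as a bar and a dashed line at a TPM of 1. Ltc4s and Alox5ap lie above the rest in every library, and Avil, Trpm5, Dclk1 and Gfi1b share a pattern with replicate 2 highest and replicate 3 lowest.

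The lineage regulators were among the lowest members. Pou2f3 (Entrez 18988, chromosome 9, 43123927 to 43205755), the transcription factor that the tuft cell lineage requires, stood at 0.995, 1.15 and 0.867 TPM in replicates 1, 2 and 3 (mean 1.0 ± 0.144, SD, n = 3 here and below). The 3 values lay close together, on either side of the threshold, and rest on an estimated 78, 80 and 55 fragments. Gfi1b (Entrez 14582, chromosome 2, 28609450 to 28621982), a zinc finger repressor of tuft cells and of the erythroid and megakaryocyte lineages, stood at 0.265, 0.479 and 0.224 TPM (mean 0.323 ± 0.137). Replicate 2 was the highest, and the values rest on only 14, 22 and 10 estimated fragments, so they carry a large counting error. As Gfi1b is also a gene of blood cell precursors, markers of those cells were set beside it. Of 12 erythroid and megakaryocyte genes, 4 were at 1 TPM or more throughout, against 53.4% of all genes. The globin genes Hba-a2, at 127, 415 and 329 TPM, and Hbb-bs, at 89.4, 262 and 238, led them. The chemokine gene Pf4 came next, at 26.3, 15.1 and 52.1, highest in replicate 3 and lowest in replicate 2. Ppbp and Gp9 of the same list were near 0, at 0.173, 0.275 and 0.0858 and at 0, 0.0564 and 0.0618. The erythroid regulator Gata1 was at 0.0542, 0.122 and 0.0446 TPM. The 12 genes summed to 254 TPM in replicate 1, 702 in replicate 2 and 628 in replicate 3, mostly from the globin genes. The part of these cells in the Gfi1b values was not tested.

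Other regulators linked to tuft cells or to POU factors bracketed these levels. Of 16 listed, 10 were at 1 TPM or more throughout, led by the broad epithelial factors Ehf, Sox9 and Sox4. Spib, an ETS factor of tuft cells, M cells and lymphocytes, stood at 4.43, 3.32 and 3.07 TPM. The homeobox gene Hmx2 stood at 0.879, 1.02 and 0.361, and its neighbour Hmx3 at 1.24, 1.22 and 0.357. Both homeobox genes were lowest in replicate 3, as Pou2f3 was. 1810046K07Rik and Gm684, which encode the POU2F3 coactivators of tuft cells, stood at 1.81, 1.08 and 0.712 and at 3.63, 3.58 and 3.81 TPM. The related B cell coactivator Pou2af1 was at 0.794, 1.28 and 3.16, highest in replicate 3. All 12 lymphocyte genes were highest there too, as were all 10 fibroblast genes and 14 of 15 macrophage and dendritic cell genes. The part of any of these cells in the Pou2af1 values was not tested.

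The channel and the structural genes of the tuft formed the middle of the order. Trpm5 (Entrez 56843, chromosome 7, 143071529 to 143094642) stood at 2.85, 4.71 and 2.34 TPM (mean 3.30 ± 1.25), on an estimated 364, 530 and 241 fragments. Avil (Entrez 11567, chromosome 10, 127000065 to 127020994) stood at 3.19, 5.04 and 2.27 TPM (mean 3.50 ± 1.41). Dclk1 (Entrez 13175, chromosome 3, 55242303 to 55539068) stood at 2.27, 4.08 and 1.47 TPM (mean 2.61 ± 1.34). In all 3 genes replicate 2 was the highest and replicate 3 the lowest, by 2.02-fold for Trpm5, 2.22-fold for Avil and 2.78-fold for Dclk1. Dclk1 has annotated transcripts of very different lengths, so its TPM depends on the transcripts assumed.

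Dclk1 and Avil are also made by other cells of the gut wall, in particular neurons. The summed level of 16 enteric neuron and glia genes, Uchl1 and S100b among them, was 7.75 TPM in replicate 2 against 11.3 and 14.8 in replicates 1 and 3. The median of the list was instead lowest in replicate 1, at 0.195, 0.341 and 0.344, and 3 of the 16 genes had the order of Dclk1 and Avil. The part of neurons in the values of both genes was not tested. All 10 fibroblast genes were lowest in replicate 2, and the ratio of Dclk1 to the fibroblast gene Dcn was 0.0319, 0.0846 and 0.00946. The part of fibroblasts in the Dclk1 values was not tested either. Exons of Avil overlap those of Tsfm, and exons of Trpm5 those of Tssc4, each on the opposite strand. Both neighbours were more abundant, at 53.2, 56.3 and 56.3 TPM for Tsfm and 36.7, 33.9 and 31.5 for Tssc4, and whether the counting used strand is not given in the sources used here. Tsfm was equal in replicates 2 and 3. The ratio of Avil to Tsfm spanned 2.22-fold over the libraries and that of Trpm5 to Tssc4 1.88-fold. The part of reads from Tsfm and Tssc4 in the Avil and Trpm5 values was not tested.

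The leukotriene genes were the highest and did not share this pattern. Ltc4s (Entrez 17001, chromosome 11, 50236461 to 50238532), whose product joins glutathione to leukotriene A4, stood at 16.4, 15.8 and 15.7 TPM (mean 16 ± 0.385). These values were nearly equal: their SD on the log2(TPM + 1) scale lay at percentile 2.28 of genes of like level. Alox5ap (Entrez 11690, chromosome 5, 149265004 to 149288153), which encodes the protein that presents arachidonic acid to 5-lipoxygenase, stood at 9.28, 6.37 and 12.4 TPM (mean 9.35 ± 3.02). It was highest in replicate 3 and lowest in replicate 2, the reverse of Trpm5, Avil and Dclk1.

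Both genes are also active in white blood cells. Among 15 macrophage and dendritic cell genes, led by Lyz2, C1qa and Cd14, 13 had the order of Alox5ap, highest in replicate 3 and lowest in replicate 2, where 11.0% of all genes above 0 in a library did. Lyz2 stood at 99.2, 57.8 and 197 TPM, and the ratio of Alox5ap to Lyz2 was 0.0935, 0.110 and 0.0630. The common leukocyte gene Ptprc, which a subset of tuft cells also carries, was at 1.41, 2.67 and 6.22. The same order was found in 10 of 10 fibroblast genes, 8 of 10 genes of smooth muscle and pericytes and 6 of 10 goblet cell genes. The part of any of these cells in the Alox5ap values was not tested. Mast cells make leukotriene C4 as well. Of 11 mast cell genes, Kit and Cma1 were at 1 TPM or more throughout, and 8 were below it in every library. Hdc stood at 0.770, 0.696 and 1.0, and Tpsb2 at 0.0689, 0.467 and 0.426. The IgE receptor genes Fcer1a, listed at 0 in all 3, and Ms4a2, at 0.0276 to 0.0341, were at or near 0. So was the protease gene Cpa3, at 0 to 0.049. Granulocyte genes had a summed level of 8.49, 8.63 and 13.3 TPM over 12 genes. Of these, Cxcr2, at 1.06, 2.77 and 2.28, and Mpo, at 1.18, 1.42 and 1.34, were at 1 TPM or more throughout. The part of mast cells and granulocytes in the Ltc4s and Alox5ap values was not tested.

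Other genes linked to eicosanoids were mostly lower than Ltc4s. Of 10 listed, 8 were at 1 TPM or more throughout, led by Gpx2, Pla2g10 and Pla2g4a. These lay above Ltc4s in every library, and the other genes listed lay below it. Alox5, the 5-lipoxygenase itself, stood at 2.61, 2.81 and 3.53 TPM, below Alox5ap in every library. The prostaglandin genes Hpgds, at 1.86, 3.15 and 3.65, and Ptgs1, at 2.50, 2.26 and 7.41, were highest in replicate 3. Of the 10 genes, 7 were highest in replicate 3, a count for which no share over all genes was computed. None had the order of Trpm5, which 10.5% of all genes above 0 in a library had. With 10 genes, this absence says little.

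Acetylcholine synthesis was represented by Chat alone. Chat (Entrez 12647, chromosome 14, 32408203 to 32465909), choline acetyltransferase, stood at 0.590, 0.615 and 0.186 TPM (mean 0.464 ± 0.241), on an estimated 51, 47 and 13 fragments. Replicates 1 and 2 were alike and replicate 3 was lowest. The vesicular acetylcholine transporter gene Slc18a3, which lies within the Chat locus and serves cholinergic neurons, was at 0.139, 0.0157 and 0, and the choline transporter gene Slc5a7 at 0.0189, 0.056 and 0.0229. Of other neuronal genes, Elavl4 stood at 0.0866, 0.169 and 0.0107, lowest in replicate 3 as Chat was, and Uchl1 at 3.59, 0.881 and 2.70, above Chat in every library. The part of neurons in the Chat values was not tested. Of 11 other acetylcholine genes 5 were at 1 TPM or more throughout, against 53.4% of all genes. The esterases Ache and Bche and the receptor subunit gene Chrnb4 led them.

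Ordered by mean, the members ran Ltc4s, Alox5ap, Avil, Trpm5, Dclk1, Pou2f3, Chat and Gfi1b. Every value of Ltc4s lay above every value of Alox5ap, and the same held for Alox5ap over Avil, Dclk1 over Pou2f3 and Pou2f3 over Chat. Avil and Trpm5 overlapped, as did Trpm5 and Dclk1, and Chat and Gfi1b. Trpm5 was nevertheless above Dclk1 within each of the 3 libraries. Among genes at 1 TPM or more throughout, the mean of Ltc4s lay at percentile 48.3, that of Alox5ap at 32.8, that of Avil at 12.2, that of Trpm5 at 11.1 and that of Dclk1 at 7.84.

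**Figure D2:**
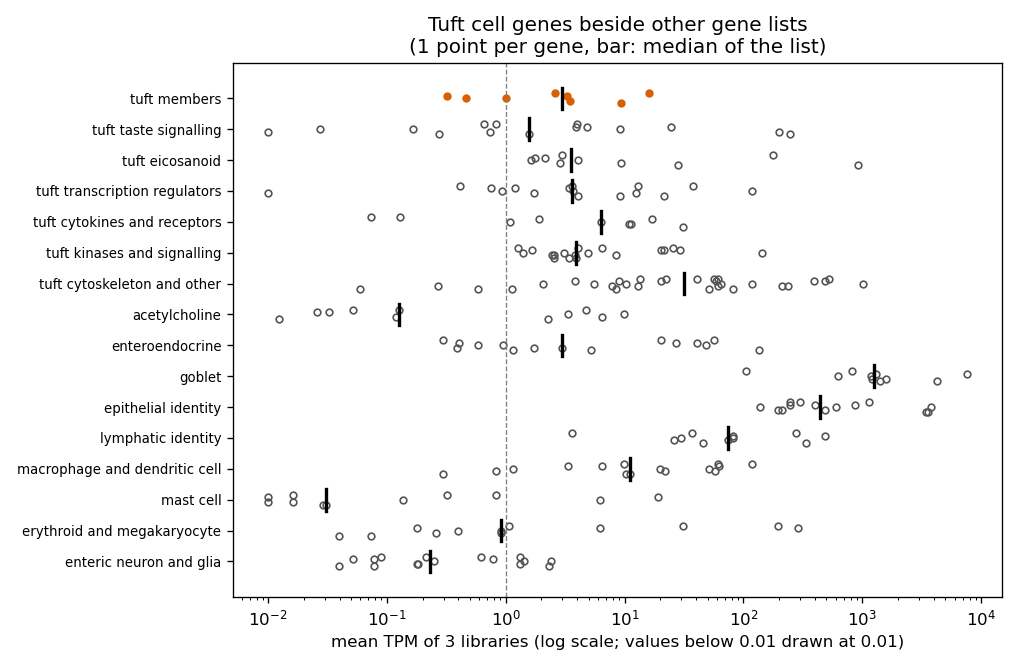
Mean TPM over the 3 libraries (log axis) of every gene in 16 lists, 1 point per gene, with the list median as a bar. The tuft cell genes (filled) have means of 0.323 to 16 TPM and lie far below the genes of epithelial identity and of goblet cells.

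Tuft cell genes were far below genes shared by all colonic epithelium. On the log2(TPM + 1) scale the mean over members minus that over the epithelial identity list was -7.11, -7.13 and -7.56 in replicates 1, 2 and 3 (mean -7.27 ± 0.26). Against lymphatic identity genes the difference was -4.34, -4.20 and -3.92 (mean -4.15 ± 0.22). Enteroendocrine cells are another rare epithelial type, and against their 15 genes the difference was smaller, at -1.02, -0.54 and -1.20 (mean -0.92 ± 0.34). With medians in place of means it was -0.19 ± 0.62, smaller than its SD. The enteroendocrine list was led by the peptide hormone genes Pyy, Gcg and Sct, at means of 136, 56.2 and 48.2 TPM, and 8 of its 15 genes were at 1 TPM or more throughout. For comparison, 10 goblet cell genes, led by Spink4, Agr2 and Clca1, summed to 19306 to 21344 TPM. In bulk RNA, fewer cells of a type and less RNA per cell cannot be told apart.

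Most tuft cell genes ranked the libraries alike. Of the 8 members, 6 (Dclk1, Trpm5, Pou2f3, Avil, Gfi1b and Chat) were highest in replicate 2 and lowest in replicate 3, an order found in 10.5% of the 19067 genes above 0 in a library. Leaving out replicate 3 is no check of this count, because these 6 are by definition higher in replicate 2 than in replicate 1. All members except Alox5ap were lowest in replicate 3, against 20.9% of genes, though Ltc4s was nearly equal, at 16.4, 15.8 and 15.7 TPM. For Pou2f3 and Chat the place of replicate 2 depended on scaling: after median-of-ratios scaling Pou2f3 stood at 1.10, 1.09 and 0.816 and Chat at 0.655, 0.582 and 0.175. Trpm5, Avil, Dclk1 and Gfi1b kept their order under that scaling and under TPM rescaled without ribosomal protein genes and Mir6236. None of the 6 members with a mean TPM of 1 or more had an SD above percentile 95 of genes of like level, which 5.0% of tested genes did. Their SDs lay at percentile 77.3 for Trpm5, 81.6 for Avil, 85.5 for Dclk1, 87.1 for Alox5ap and 9.32 for Pou2f3.

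**Figure D3:**
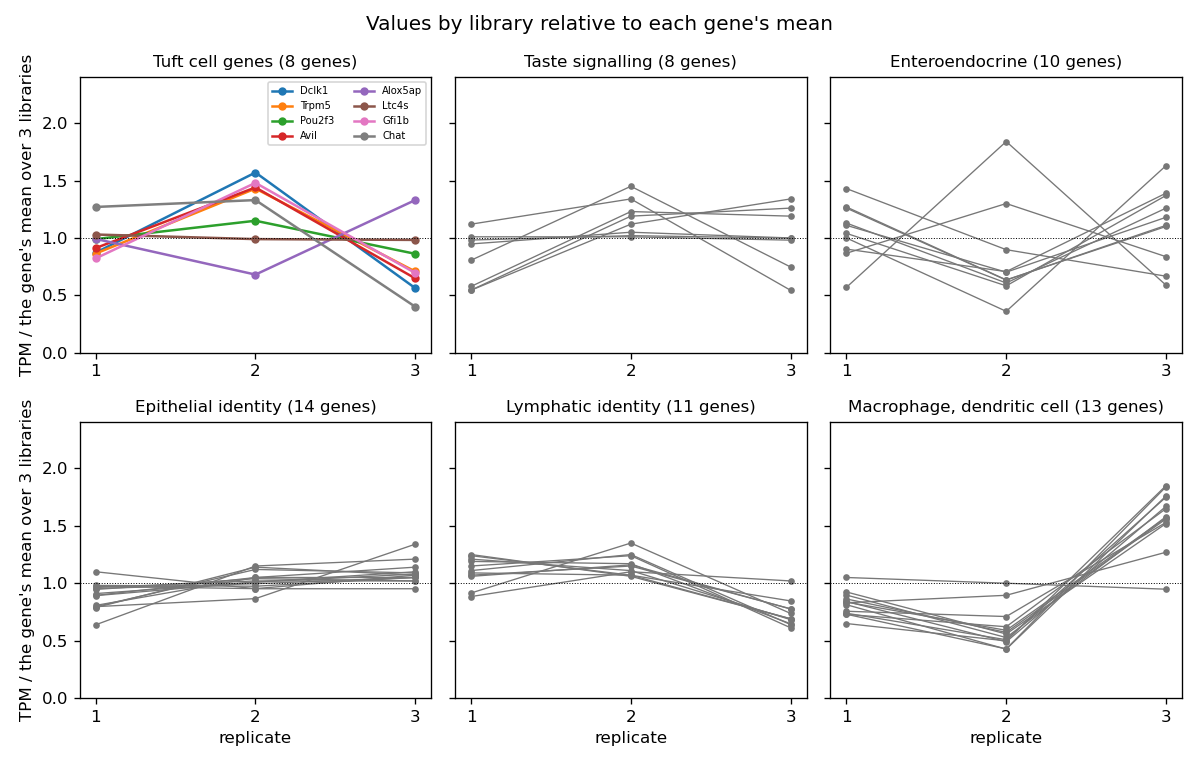
TPM in each library divided by the gene's mean over the 3 libraries, for the 8 tuft cell genes and for genes of mean TPM 1 or more in 5 other lists; lines join the values of 1 gene and the replicates have no order. Dclk1, Trpm5, Avil and Gfi1b peak in replicate 2, Alox5ap is highest in replicate 3 and lowest in replicate 2, as most macrophage genes are with a wider span, and Ltc4s is flat.

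Ratios to Trpm5 within each library describe how far the members differed from its profile. The ratio of Avil to Trpm5 was 1.12, 1.07 and 0.970, and that of Gfi1b to Trpm5 was 0.0932, 0.102 and 0.0960, so that their highest and lowest ratios differed by 1.15-fold and 1.09-fold while Trpm5 itself differed by 2.02-fold. The Gfi1b ratio rests on 10 to 22 estimated fragments, too few to show that it was constant, and these genes were set side by side because their order was alike. Dclk1 stood at 0.798, 0.866 and 0.628 of Trpm5. Pou2f3 varied less than Trpm5, and its ratio was lowest in replicate 2, at 0.349, 0.245 and 0.371. The ratio of Chat to Trpm5 was 0.207, 0.131 and 0.0796 and differed by 2.60-fold. Ltc4s relative to Trpm5 was 5.77, 3.36 and 6.73.

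**Figure D4:**
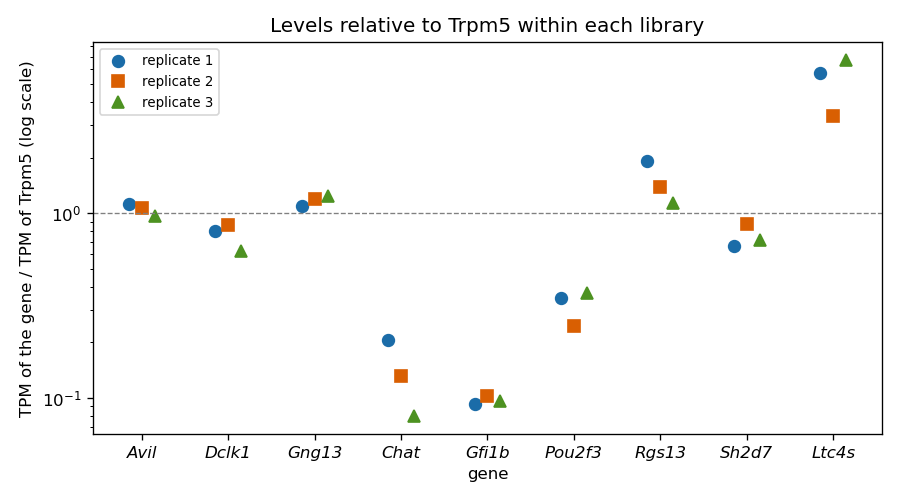
TPM of 9 genes divided by that of Trpm5 within each library (log axis, dashed line at equal levels). The ratios of Avil, Gng13 and Gfi1b lie close together, the last on few fragments, and those of Chat and Ltc4s lie farther apart; Gng13, Rgs13 and Sh2d7 are tuft cell genes outside the 9 members and were chosen after their values were seen.

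The general epithelial gene Epcam did not share the order of the tuft cell genes. Epcam stood at 1100, 1166 and 1161 TPM, and Trpm5 per 1000 TPM of Epcam was 2.59, 4.04 and 2.01, so the span of Trpm5 was as large relative to Epcam as it was in TPM. The lymphatic gene Lyve1 stood at 545, 611 and 314, with the same order as Trpm5. Lymphatic genes in general were lowest in replicate 3, and of the 11 listed 5 had the order of Trpm5. Of the 15 enteroendocrine genes 6 had the reverse order, highest in replicate 3 and lowest in replicate 2, and the ratio of Trpm5 to the granin gene Chga was 0.126, 0.387 and 0.0922. Chga itself stood at 22.7, 12.2 and 25.3. Another 4 of the 15 were highest in replicate 2, among them the endocrine precursor gene Neurog3, at 0.986, 3.18 and 1.02, and Sct, at 41.8, 62.5 and 40.3, which had the order of Trpm5. The stem cell gene Lgr5 and the goblet cell gene Muc2, at 2.66, 3.20 and 3.16 and at 627, 988 and 827, were highest in replicate 2 without being lowest in replicate 3. Muc2 differed from most of its list: 7 of 10 goblet cell genes were highest in replicate 3, and 6 had the reverse order of Trpm5. The part of any of these cell types in the tuft cell values was not tested.

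The taste cascade upstream of TRPM5 was examined next. Of 15 genes listed, 7 were at 1 TPM or more throughout, against 53.4% of all genes. The broadly expressed G protein genes Gnai2 and Gnb1 led them, followed by Itpr3. The list was highest in replicate 2 for 13 of 15 genes, against 39.3% of all genes above 0 in a library, and 7 had the full order of Trpm5. These counts include near ties and genes near 0. Among the 7 were Gnai2, at 252, 252 and 245 TPM, and Gnb3 and Gucy2f, each on an estimated 3 fragments or fewer. Rgs2, among the 13, stood at 9.02, 9.37 and 9.18. Gng13, the G protein gamma subunit of taste and tuft cells, stood at 3.12, 5.61 and 2.89 TPM and held a ratio of 1.10, 1.19 and 1.24 to Trpm5. Gnat3, which encodes the taste G protein gustducin, stood at 0.252, 2.13 and 0.117. Its value in replicate 2 rests on an estimated 71 fragments, against 10 and 4 in the others. The regulator of G protein signalling Rgs13 stood at 5.45, 6.50 and 2.64. Plcb2, the phospholipase of the cascade, at 0.853, 1.75 and 2.09 TPM, and the calcium release channel gene Itpr3, at 13.4, 29.3 and 31.0, were highest in replicate 3. Of the 15 genes, 8 were lowest in replicate 1. No share over all genes was computed for this count, and the median over all genes was also lowest there, at 2.02, 2.44 and 2.77 TPM. The taste receptor gene Tas1r3 reached 0.498, 0.989 and 0.723, and the succinate receptor gene Sucnr1 0.0896, 0.430 and 0.304, all below the threshold.

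The cytokine that tuft cells are best known for was close to 0. Il25 was listed at 0 in replicate 1, at 0.0401 TPM in replicate 2 and at 0.351 in replicate 3, or an estimated 0, 1 and 8 fragments. It was therefore highest where most members were lowest, at a level that rests on few fragments. Its receptor subunit gene Il17rb stood at 0.612, 1.56 and 1.10. Tslp, a further cytokine linked to some tuft cells, stood at 2.72, 1.67 and 1.38. Of the 9 cytokine and receptor genes listed, 6 were at 1 TPM or more throughout, led by Il13ra1, Il33 and Il17re, which other cells also make.

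Kinase and adaptor genes linked to tuft cells, several of which leukocytes also express, were examined as well. Of 19 listed, 18 were at 1 TPM or more throughout, led by Ptpn18, Lyn and Lrmp, against 53.4% of all genes, and 11 were highest in replicate 2, against 39.3%. Another 6 were highest in replicate 3, among them the leukocyte genes Ptprc, given above, and Rac2, at 2.93, 4.65 and 7.27. Macrophage and lymphocyte genes were highest there too, and their part in these values was not tested. Sh2d7, an SH2 domain adaptor gene like the missing Sh2d6, stood at 1.90, 4.12 and 1.66 TPM, with the order of Trpm5 and a ratio to it of 0.666, 0.874 and 0.712. Siglecf, a lectin of tuft cells and eosinophils, stood at 1.32, 1.92 and 0.608. Of the eosinophil genes, Epx and Ear1 were at or near 0, Prg2 stood at 0.812, 0.270 and 0.592, and Ear2 at 2.65, 0 and 2.26. Of 30 further genes linked to the tuft or its cytoskeleton, 26 were at 1 TPM or more throughout, led by Adh1, Cd24a and Krt18, genes that much of the epithelium expresses. Over the 99 genes of these 6 wider lists, 75 were at 1 TPM or more throughout, against 53.4% of all genes, and 13 had no library at that level. In replicate 2, 44 of the 99 were highest, near the 39.3% of all genes, and 18 had the order of Trpm5, against 10.5%. Of these 18, the taste list gave 7 of its 15 genes and the kinase list 6 of its 19. The regulator list gave 1 of 16, the cytokine list 1 of 9, the cytoskeleton list 3 of 30 and the eicosanoid list none. Near ties are counted, such as Lrmp at 25.2, 25.6 and 25.2 TPM, as are genes near 0. The lists were chosen with earlier results of these data known, so no conclusion is drawn from the excess.

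Because Ltc4s and Alox5ap dominate the sum over members, the summed profile was nearly flat and resembled many genes. By distance between centred log2(TPM + 1) profiles over the 3 libraries, Mcat, Dus3l, Mrpl2, 9130221H12Rik and Dnajb6 were nearest, at 0.00121 to 0.00307. Within a distance of 0.1 lay 1540 of 10501 genes of mean TPM 5 or more, or 14.7%, so the likeness singles out no gene.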

How the data were processed

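The deposited tables give 1 TPM value per gene and library, as the authors' column headers state. The submitters' processing notes name mm10, Cell Ranger 6.0.1 and HTSeq. How the TPM values were computed, the annotation and strand use are not given in the sources used here. No unit was changed. The values summed to 999896.1 to 999939.0 per library. All 3 libraries form 1 group, so no test between conditions was made. The members and lists were chosen with earlier results of these data known. Named genes are all members, the 3 highest of a list described, its defining markers, and the 5 genes of most similar profile. List differences use log2(TPM + 1). Genes above percentile 95 of SD in 1 of 20 bins of mean level (mean TPM of 1 or more) were called variable. Fragments were estimated from the steps of low values of single-transcript genes, with lengths from GENCODE M21 less 200 bases. The phase score was 0.603 to 0.636, against 0.196 to 0.222 with shuffled lengths. Of the values, 72.7% to 73.7% lay within 0.15 of a whole number, where 30% would by chance for a factor fixed in advance. The factor was chosen to align these same values, so the share expected by chance is above 30%. Coordinates are RefSeq GRCm38.p6, 1-based. Steps were tested on simulated data. Python 3.11.15, numpy 2.4.6, pandas 2.3.3 and matplotlib 3.10.9 were used. Alternatives were other thresholds, pseudocounts, scalings, medians and leaving out replicates. Some genes named by the rule are not reported here.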

Additional observations from a re-analysis of the deposited data

How the results depend on the processing

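The count of members at a TPM of 1 in all libraries was 5 of 8. It was 2 at a TPM of 5, 6 at a TPM of 0.5, by mean or after rescaling without ribosomal protein genes and Mir6236, and 5 without any replicate. The summed level moved from 36.5 to 48.7 TPM under that rescaling, which raises every gene, and ranged from 35.7 to 37.1 when a replicate was left out. The difference from epithelial identity genes was -7.94 with a pseudocount of 0.1, -6.85 with medians and -6.78 with genes of mean TPM 1 or more (-7.34 to -7.12 without a replicate). The difference from enteroendocrine genes was -0.19 with medians and -1.56 with that filter (-1.11 to -0.78). The difference from lymphatic genes was -4.78 with a pseudocount of 0.1 and -3.67 with the filter (-4.27 to -4.06). No member was called variable except Alox5ap without replicate 1 (0 to 1 members when a replicate was left out). Members highest in replicate 2 numbered 6, 5 without ribosomal protein genes and 4 after median-of-ratios scaling. Of 40 alternative values of single members, 37 moved by less than 1 SD. The other 3, for Alox5ap, Ltc4s and Pou2f3, came from the rescaling. The counts by order of libraries were added after seeing the data. Chat and Gfi1b rest on few fragments. No paired analysis was possible because there is only 1 group.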
